A study of Arabidopsis thaliana with 4 samples.

Results

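Transcripts of 6 Arabidopsis genes for secreted defence proteins were measured across 4 microarrays: the plant defensin genes PDF1.2 and PDF1.2b, the defensin-like gene AT4G22212, the osmotin-like gene OSM34, the beta-1,3-glucanase gene AT4G16260 and the chitinase family gene AT2G43590. They are 6 of 13286 genes for which the annotation lists a probe set of their own, and each has 1 probe set. They were picked by name with their differences between arrays already known. The values that chose them, in the dexamethasone and genotype comparisons alike, are therefore given as a description, with no test.

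Seedlings of the Landsberg erecta accession (Ler, the wild type here) and of the GR-REV line in the same accession were grown for 10 days in liquid culture. GR-REV carries REVOLUTA, an HD-ZIP III transcription factor, joined at its amino terminus to the glucocorticoid receptor domain and driven by the constitutive CaMV 35S promoter, with mutations that remove the microRNA complementary site. Each genotype had a mock flask, given ethanol at 0.1%, and a dexamethasone flask, given the steroid at 50 µg/ml with the same share of ethanol, both for 1 h before harvest. Dexamethasone lets a protein fused to the receptor domain enter the nucleus. Each of the 4 flasks gave 1 array, so every group holds 1 array, no group has a replicate, and the number of arrays limits the precision. The 35S promoter acts in most tissues, so the fusion was not restricted to the tissues where REVOLUTA is normally made. The labels do not say whether the GR-REV seedlings came from 1 transformed line or several.

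Plant defensins are small, cysteine-rich secreted peptides that inhibit fungi, and PDF1.2 is the standard marker of the defence branch that jasmonate and ethylene switch on together. Osmotins are thaumatin-like proteins of pathogenesis-related family 5, and their genes respond to osmotic stress, abscisic acid and ethylene. Beta-1,3-glucanases and chitinases cut the main polymers of fungal walls and belong to further pathogenesis-related families. In healthy seedlings these genes are often expressed at low or uneven levels and respond to wounding, handling and microbes as well as to hormones.

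The titles and the treatment protocols give the GR-REV arrays one assignment of mock and dexamethasone, and the source names give the reverse. Groups follow the titles and protocols. Under the source names, the array called GR-REV dexamethasone below is the mock array, and each difference within the GR-REV pair turns its sign, and the genotype comparisons at matched treatment would pair other arrays. The values are MAS5 signals, 1 intensity per probe set on a linear scale. Differences are in log2 after raising signals below 91.4, the 40th percentile of all signals, to that floor. Median signals lay between 156 and 181. The ratio of 3′ to 5′ control signals, a measure of RNA integrity, lay between 1.29 and 1.78 for GAPDH, with the lowest ratio on the GR-REV dexamethasone array. For Actin it lay between 9.33 and 13.9, higher in wild type dexamethasone and GR-REV mock than on the other arrays, and for ubiquitin it was 1.57 and 1.67 in wild type against 2.25 and 2.21 in GR-REV. The part of RNA integrity in the values below was not tested. The GR-REV dexamethasone array was also scanned first, 144 to 194 minutes before the others. Each group had its own scan and fluidics module, so neither can be told apart from the group. Of the tissue marker lists, the leaf gene RCA had signals of 18365 to 28804, highest in wild type dexamethasone, and the root gene PYK10 had 10171 to 16494, lowest on the same array. The annotation listed a probe set of their own for 1 of 14 leaf genes, RCA, and for 3 of 8 root genes. The other root genes, EXPA7 and EXPA18, were at or near the floor on every array, and no seed or flower marker had a probe set listed. The summed signal of the 3 root genes was 10259 to 16663. In whole seedlings, fewer cells of a type and less RNA per cell cannot be told apart, and the part of tissue make-up in the values below was not tested.

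All 6 genes lay above the floor on all 4 arrays. PDF1.2 (AT5G44420, chromosome 5) had signals of 1341 without and 2822 with dexamethasone in wild type, and 5721 without and 1541 with it in GR-REV. The GR-REV mock array stood highest, 2.03-fold above the next array, and the highest signal was 4.27-fold the lowest. Dexamethasone went with opposite directions in the genotypes: a log2 difference of 1.07 in wild type and of -1.89, or 3.71-fold lower, in GR-REV. Without dexamethasone, GR-REV had 4.27-fold the wild type signal.

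PDF1.2b (AT2G26020, chromosome 2), a close relative of PDF1.2, had signals of 6447 without and 6287 with dexamethasone in wild type, and 6438 without and 1854 with it in GR-REV. The first 3 arrays spanned only 1.03-fold, over which PDF1.2 spanned 4.27-fold, and the GR-REV dexamethasone array lay 3.39-fold below the lowest of them. The PDF1.2b probe set has the suffix that Affymetrix gives to probes that may also detect other transcripts, so its signal may hold that of related defensins. The other PDF1.2-type genes, PDF1.2c and PDF1.3, were not analysed here.

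AT4G22212, on chromosome 4, whose product is classed as defensin-like, had signals of 1144 without and 594 with dexamethasone in wild type, and 437 without and 115 with it in GR-REV. It was lower with dexamethasone in both genotypes, 1.92-fold in wild type and 3.78-fold in GR-REV. It was also lower in GR-REV than in wild type at both treatments, 2.62-fold in mock and 5.15-fold in dexamethasone. The lowest signal was only 1.26-fold above the floor, so the last differences rest on a value near background.

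OSM34 (AT4G11650, chromosome 4) had signals of 180.1 without and 722 with dexamethasone in wild type, and 1522 without and 302 with it in GR-REV. Its arrays stood in the same order as those of PDF1.2, with GR-REV mock highest, 2.11-fold above the next array, and wild type mock lowest. The spread between highest and lowest was 8.45-fold. As for PDF1.2, the dexamethasone array was the higher of the wild type pair, 4.01-fold, and the lower of the GR-REV pair, 5.04-fold.

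AT4G16260, on chromosome 4, which encodes a beta-1,3-glucanase, had signals of 1045 without and 675 with dexamethasone in wild type, and 2807 without and 734 with it in GR-REV. GR-REV mock again stood alone, 2.69-fold above the next array, while the other 3 arrays spanned 1.55-fold. Between the dexamethasone arrays the genotypes differed by only 0.12 on the log2 scale, against 1.43 between the mock arrays.

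AT2G43590, of the chitinase family, had signals of 7493 without and 5495 with dexamethasone in wild type, and 1509.6 without and 911 with it in GR-REV. Here the split followed genotype, and the wild type and GR-REV signals did not overlap. Such a split is common: this order of arrays alone was held by 7.62% of the probe sets above the floor on every array. The other orders with both wild type arrays above both GR-REV arrays were held by 5.77%, 5.04% and 4.5%. GR-REV was 4.96-fold lower in mock and 6.03-fold lower in dexamethasone, a mean log2 difference of -2.45 over both treatments. Dexamethasone went with smaller differences, 1.36-fold lower in wild type and 1.66-fold lower in GR-REV.

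**Figure D1:**
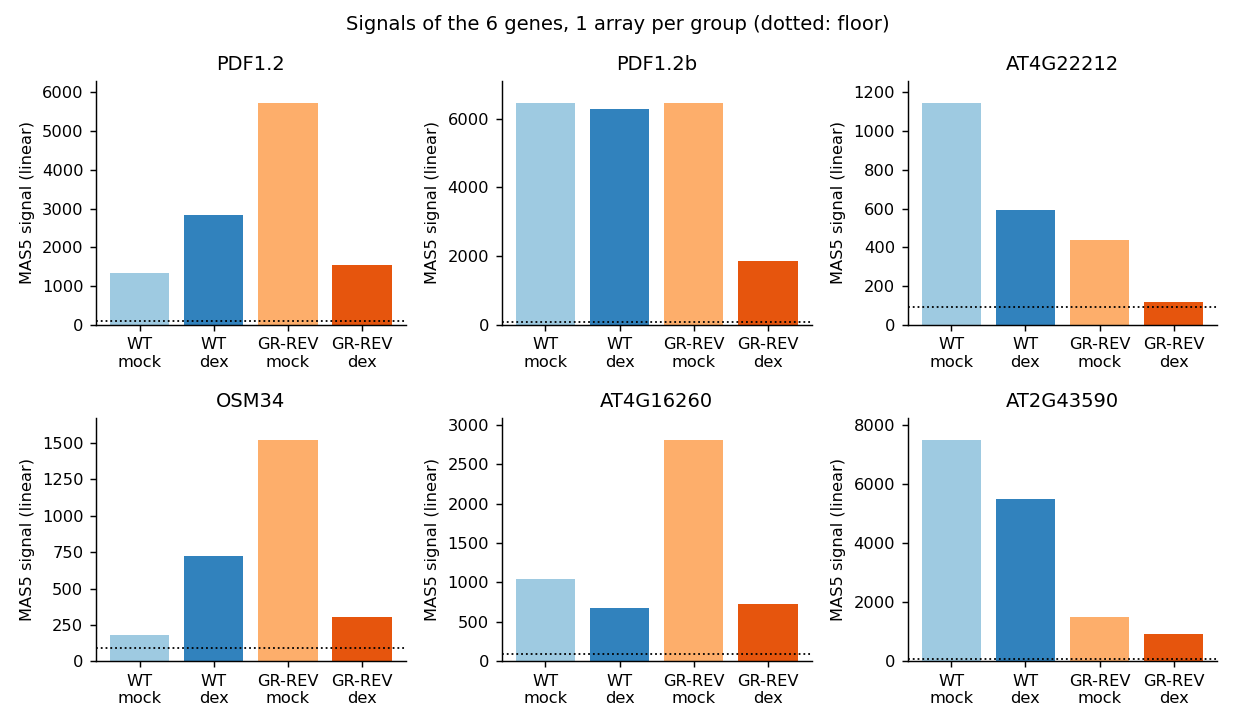
MAS5 signals (linear scale, vertical axis) of the 6 genes on the 4 arrays, 1 bar per array, with the floor of 91.4 as a dotted line; no error bars are drawn because each group is 1 array. GR-REV mock is the highest bar for PDF1.2, OSM34 and AT4G16260, GR-REV dexamethasone is the low bar for PDF1.2b, and wild type is above GR-REV for AT4G22212 and AT2G43590.

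Dexamethasone against mock in GR-REV addresses the study's question of which genes respond quickly when the REVOLUTA fusion is released. Of the 6 genes, 5 had a signal in GR-REV dexamethasone that was lower by 2-fold or more, against 1.21% of all 22746 probe sets, and none was 2-fold higher, against 1.22%. Since the genes were picked with this contrast known, nothing is read from that count. The log2 differences were -2.33 for OSM34, -1.94 for AT4G16260, -1.92 for AT4G22212, -1.89 for PDF1.2 and -1.80 for PDF1.2b. Ranked from the lowest of all probe sets, OSM34 was in place 4, AT4G16260 in 20, AT4G22212 in 21, PDF1.2 in 22 and PDF1.2b in 32. AT2G43590 differed by -0.73, in place 631. These similar differences came with different patterns over the 4 arrays. For OSM34, PDF1.2 and AT4G16260 it was the mock array that was at least 2-fold above each other array, as were 0.268% of all probe sets. For PDF1.2b and AT4G22212 the dexamethasone array was at least 2-fold below each other array, as were 0.321%. With the floor value added to each signal only 1 of the first 3 genes stood that far apart. When the floor was raised to the 60th percentile, AT4G22212 differed by only -0.67 in the GR-REV pair.

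In wild type, which lacks the fusion, OSM34 differed by 2.00 and PDF1.2 by 1.07 on the log2 scale, and these 2 genes were at least 2-fold higher with dexamethasone, against 0.554% of all probe sets. OSM34 ranked 12 and PDF1.2 ranked 93 from the highest. None of the 6 was 2-fold lower, against 1.68%. Opposite signs of at least 2-fold in the genotypes, as OSM34 and PDF1.2 had, were found for 0.0396% of probe sets. The differences were -0.94 for AT4G22212, -0.63 for AT4G16260, -0.45 for AT2G43590 and -0.04 for PDF1.2b. A response of wild type seedlings to dexamethasone and a difference between the flasks cannot be told apart.

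Between genotypes, the mock arrays and the dexamethasone arrays gave different pictures. In mock, OSM34 at 3.08, PDF1.2 at 2.09 and AT4G16260 at 1.43 on the log2 scale were at least 2-fold higher in GR-REV, against 2.36% of all probe sets. AT2G43590 at -2.31 and AT4G22212 at -1.39 were at least 2-fold lower, against 2.95%. In dexamethasone none of the 6 was 2-fold higher in GR-REV, against 3.18%. There, AT2G43590 at -2.59, AT4G22212 at -2.36, PDF1.2b at -1.76 and OSM34 at -1.26 were at least 2-fold lower, against 2.07%, and PDF1.2 differed by -0.87. OSM34 therefore had opposite signs between genotypes in the mock and the dexamethasone arrays. AT4G22212 and AT2G43590 kept their sign. The mock genotype comparison shares the GR-REV mock and wild type mock arrays with the dexamethasone comparisons above.

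**Figure D2:**
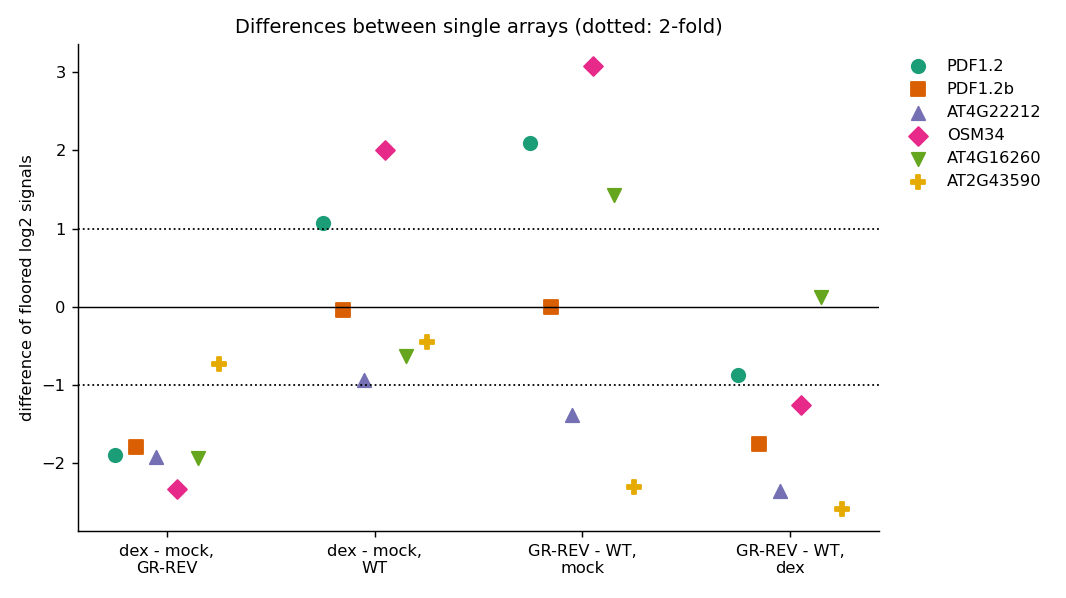
Differences of floored log2 signals (vertical axis) for the 6 genes in 4 comparisons of 1 array with another, with dotted lines at 2-fold. Within the GR-REV pair 5 symbols lie between -1.80 and -2.33, while OSM34 runs from -2.33 there to 3.08 in the mock genotype comparison; the comparisons share arrays.

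The order of the 4 arrays sorted the genes further. PDF1.2 and OSM34 shared the order GR-REV mock, wild type dexamethasone, GR-REV dexamethasone, wild type mock, from high to low. This order was held by 1.88% of the 12252 probe sets that exceeded the floor on every array, and was the least frequent of the 24 possible. AT4G22212 and AT2G43590 shared the order wild type mock, wild type dexamethasone, GR-REV mock, GR-REV dexamethasone, which was the most frequent, at 7.62%. PDF1.2b and AT4G16260 each had an order of their own among the 6, held by 5.73% and 4.04% of probe sets. With 1 array per group there is no spread against which neighbours in an order could be compared. The mock signals of PDF1.2b, 6447 in wild type and 6438 in GR-REV, are too close to give their order any weight. The lowest signals of PDF1.2 were also close, at 1541 in GR-REV dexamethasone and 1341 in wild type mock. The order it shares with OSM34 rests on that gap.

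Likeness of profiles was measured as the Euclidean distance between log2 signals over the 4 arrays, each gene centred on its own mean, among 6497 probe sets of other genes. The nearest gene to OSM34 was PDF1.2, at 0.79. OSM34 was in turn the second nearest to PDF1.2, after AT4G08780, a peroxidase family gene, at 0.68. The next nearest to OSM34 were AT4G36430, another peroxidase family gene, at 1.13 and AT4G10270 at 1.35. AT4G16260 was place 74 from PDF1.2, at 1.22, and place 75 from OSM34, at 1.89. Seen from AT4G16260, PDF1.2 was place 304 and OSM34 place 4893. PDF1.2b was place 2667 from PDF1.2, at 1.69, a smaller distance than that between AT4G16260 and OSM34. Places depend on how many genes lie near a gene, so those counted from different genes cannot be compared. The genes nearest to PDF1.2b were AT5G54130 at 0.43, the cation/proton exchanger gene CHX20 at 0.43 and AT1G48200 at 0.50.

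AT4G22212 lay nearest to the TIR-domain gene AT1G72920 at 0.45, AT3G51450 at 0.65 and AT1G49470 at 0.74, and AT2G43590 was place 15 from it. AT2G43590 had the closest match of all, AT5G46730, which encodes a glycine-rich protein, at 0.13. AT5G46730 had signals of 1021 and 797 in wild type mock and dexamethasone, and 211 and 139.8 in GR-REV. AT4G14020 and AT1G68650 followed at 0.50 and 0.54. AT4G16260 lay nearest to AT4G24350 at 0.36, AT2G24580 at 0.37 and AT2G36970 at 0.41. These distances describe 4 arrays, and nothing about shared control can be read from them.

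**Figure D3:**
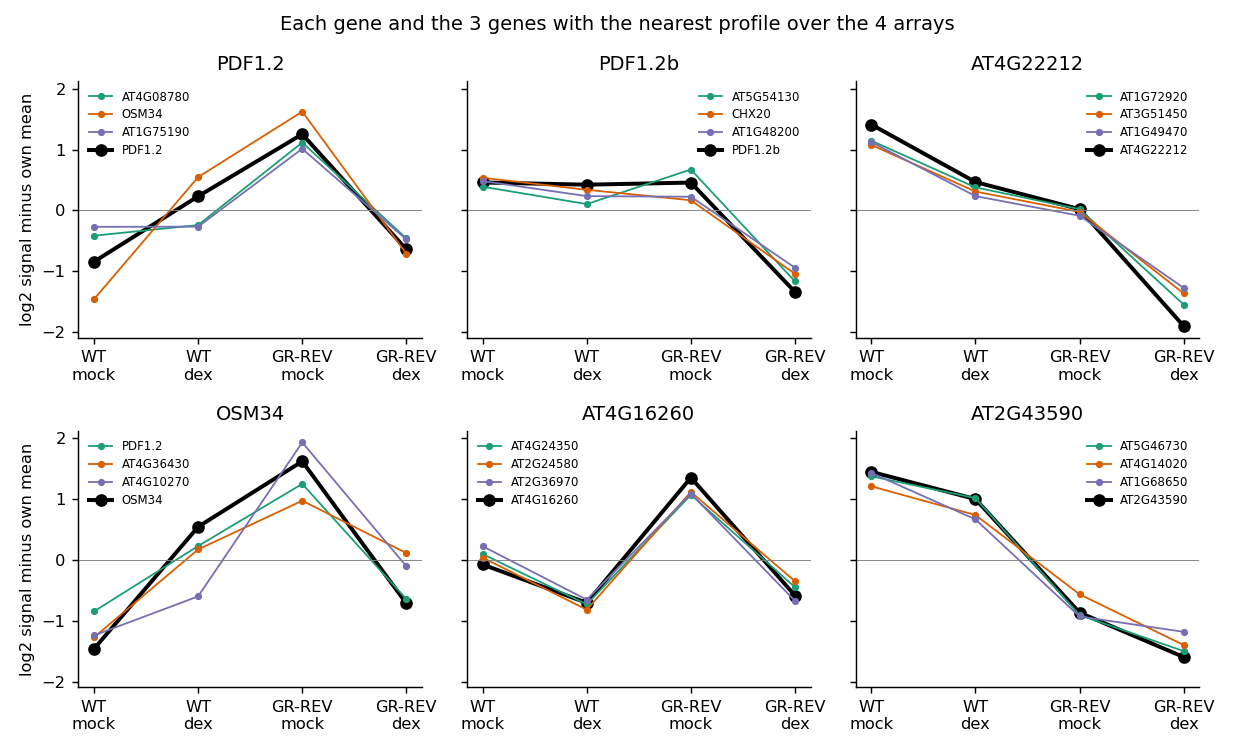
Profiles over the 4 arrays (vertical axis, log2 signal minus the gene's own mean; lines join arrays for legibility) of each of the 6 genes in black and of its 3 nearest genes in colour. PDF1.2 and OSM34 appear in each other's panel with a peak in GR-REV mock, and AT5G46730 nearly overlies AT2G43590 at a distance of 0.13.

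Relatives of the 6 genes were examined next. The protein families and signalling branches examined hold 172 genes. For 83 of them, the 6 described above included, the annotation lists a probe set of their own. Genes said below to have a probe set are these. The annotation lists no gene for 8730 of the 22746 probe sets, so a gene without a listed probe set may still be on the array. Of the 77 genes besides the 6, 41 were above the floor on at least 1 array. In the GR-REV pair, 1 of the 77 was at least 2-fold lower with dexamethasone (1.21% of all probe sets were) and 3 were at least 2-fold higher (1.22%). By any amount, 14 of the 41 were lower there and 27 higher. In the wild type pair 25 of the 41 were lower and 15 higher by any amount. Between the mock arrays 33 were lower in GR-REV and 8 higher, and between the dexamethasone arrays 20 and 19. The rest were equal. Shares over all probe sets by any amount were not computed, so nothing is read from these counts. In the wild type pair 3 of the 77 passed 2-fold downwards (1.68%) and 1 upwards (0.554%). Between the mock arrays, 5 passed 2-fold downwards in GR-REV (2.95%) and none upwards (2.36%). Between the dexamethasone arrays, 1 passed downwards (2.07%) and 1 upwards (3.18%). The percentages are the shares over all probe sets, and no test was made of these counts. The median difference of the 77 was 0.00 in each comparison, as over all probe sets, because values at the floor on both arrays differ by 0.

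Among plant defensins, 10 of 13 genes had a probe set, and 4 of the 8 besides PDF1.2 and PDF1.2b were above the floor somewhere. PDF1.4 was the only relative that was lower with dexamethasone past 2-fold in both genotypes. Its signals were 2555 without and 865 with dexamethasone in wild type, and 1279.9 without and 477 with it in GR-REV. Both dexamethasone signals lay below both mock signals, by -1.56 in wild type and -1.42 in GR-REV on the log2 scale. This order of arrays alone was held by 5.73% of the probe sets above the floor on every array. The other orders with both dexamethasone arrays lowest were held by 4.57%, 4.04% and 2.93%. In the limma test of dexamethasone over both genotypes its mean difference was -1.49 ± 0.16 (SE), with an adjusted p of 0.0550, which does not pass 0.05. Adjusted p for PDF1.4 was 0.0122 after quantile normalization, 1.2e-06 with each array divided by its median and 1.00 with the treatments of the source names. LCR68, which encodes the defensin also called PDF2.3, had signals of 4842 without and 4506 with dexamethasone in wild type, and 2376 without and 3036 with it in GR-REV. The genotypes did not overlap, in an order of arrays that alone was held by 5.77% of the probe sets above the floor on every array. The other orders with both wild type arrays highest were held by 7.62%, 5.04% and 4.5%. The difference of -0.80 ± 0.19 (SE) did not pass the limma genotype test (adjusted p = 0.118). With treatment as a term in the fit LCR68 passed, at an adjusted limma p of 0.0468; over all alternatives its adjusted p lay between that value and 0.432. LCR69, or PDF2.2, differed by 0.70 with dexamethasone in GR-REV and by 0.36 in wild type. The remaining 4 were at the floor on all arrays, and LCR67, or PDF1.1, was among them. Of the genes beside AT4G22212 on its chromosome that are classed as defensin-like, none besides it was analysed here.

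Osmotin and thaumatin-like genes with a probe set numbered 18 of 21, and 8 of the 17 besides OSM34 were above the floor somewhere. In the GR-REV pair 2 of them were at least 2-fold higher, the opposite direction to OSM34. AT2G28790 had signals of 253 and 267 in wild type mock and dexamethasone, 113 in GR-REV mock and 259 in GR-REV dexamethasone. For AT2G28790 GR-REV mock was the low array, where OSM34 was highest. These signals are near background: its log2 difference in the GR-REV pair became 0.78 with the floor value added and 0.00 with the floor at the 60th percentile. AT4G36010 had signals of 347 without and 115 with dexamethasone in wild type, and 120.3 without and 197 with it in GR-REV, highest where OSM34 was lowest. Its log2 difference in the wild type pair, -1.60, became -0.34 with that floor. For AT4G38660 the dexamethasone signal was 3.10-fold the mock signal in GR-REV and 1.70-fold in wild type. AT5G24620 passed 2-fold only between the dexamethasone arrays, with signals of 199.9 in wild type and 460.0 in GR-REV.

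Of the beta-1,3-glucanase genes, 32 of 41 had a probe set, and 18 of the 31 besides AT4G16260 were above the floor somewhere. None of the 31 was 2-fold lower with dexamethasone in GR-REV. AT5G55180 had signals of 3792 without and 2284 with dexamethasone in wild type, and 572 without and 1768 with it in GR-REV. GR-REV mock was its lowest array, 6.63-fold below wild type mock, the reverse of AT4G16260. AT5G55180 did not pass the limma genotype test (-1.55 ± 0.55 SE, adjusted p = 0.254), and only without the GR-REV dexamethasone array was its adjusted p under 0.05, at 0.00401; over all alternatives it lay between that value and 0.766. AT4G34480 had signals of 549 without and 264 with dexamethasone in wild type, and 209 without and 388 with it in GR-REV, again lowest where AT4G16260 was highest. Of the 77 genes, AT2G28790 and AT5G55180 had a GR-REV mock signal at least 2-fold below each other array, against 0.224% of all probe sets.

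**Figure D4:**
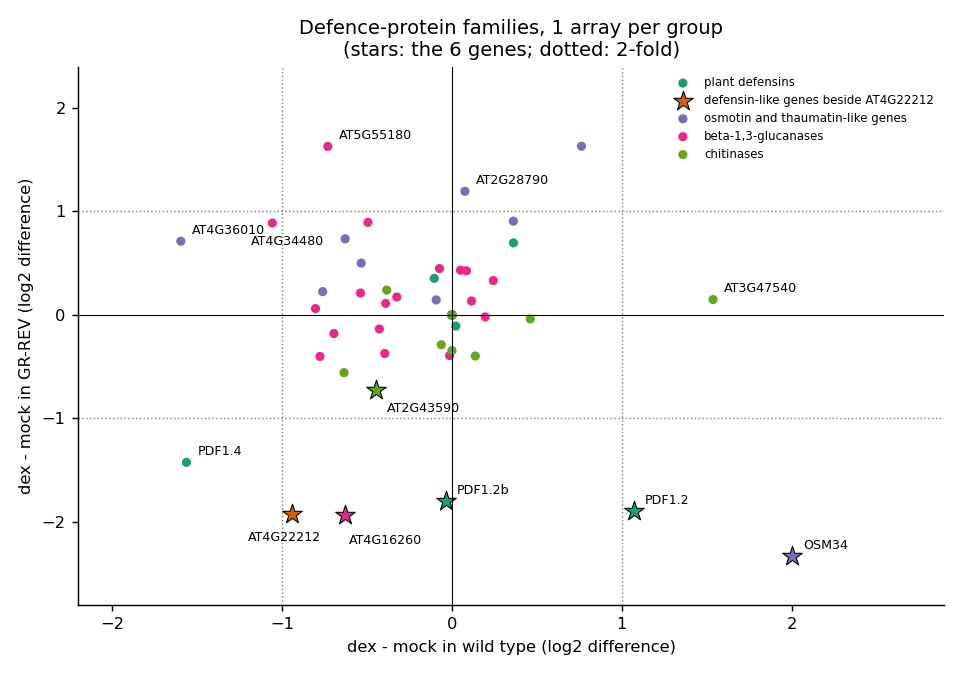
Dexamethasone minus mock on the log2 scale in wild type (horizontal axis) and in GR-REV (vertical axis) for genes of the protein families, 1 point per gene, with stars for the 6 genes and dotted lines at 2-fold; the axes share no array. Besides 5 of the stars only PDF1.4 lies below -1 on the vertical axis, and OSM34 at 2.00 and -2.33 and PDF1.2 at 1.07 and -1.89 are the only points beyond both dotted lines in the lower right.

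Chitinase genes with a probe set numbered 15 of 25, and 7 of the 14 besides AT2G43590 were above the floor somewhere. AT2G43590 lies in a run of chitinase family genes on chromosome 2, and the size of its genotype difference was not seen in the genes of that run that exceeded the floor. CHI, also in the run, had signals of 465 and 641 in wild type mock and dexamethasone, and of 699.8 and 681 in GR-REV. AT2G43620 had signals of 11285 without and 7266 with dexamethasone in wild type, and 7110.1 without and 4831 with it in GR-REV. It stood in the same order as AT2G43590, but its genotype difference was -0.63 ± 0.31 (SE), which did not pass the limma genotype test (adjusted p = 0.390). AT2G43580 and AT2G43600 were at the floor on all arrays, and AT2G43610 reached at most 119. Outside the run, AT3G47540 had signals of 682 without and 1981 with dexamethasone in wild type, and 496 without and 550.5 with it in GR-REV. Wild type dexamethasone stood alone for this gene, 1.54 above wild type mock on the log2 scale and at least 2-fold above each other array, against 0.158% of probe sets.

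**Figure D5:**
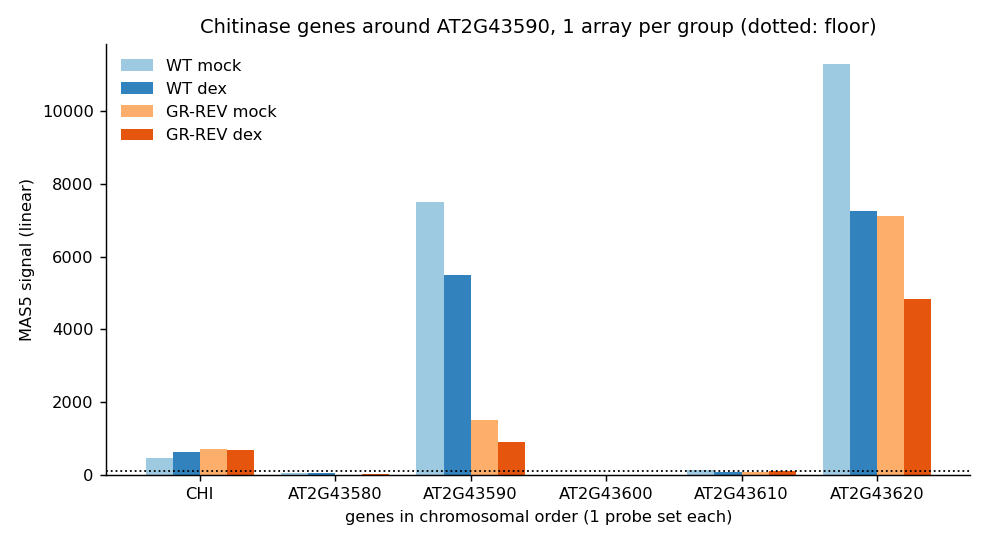
MAS5 signals (linear scale, vertical axis) of the chitinase family genes around AT2G43590 in chromosomal order, 4 bars per gene for the 4 arrays, with the floor of 91.4 dotted and no error bars since each group is 1 array. AT2G43590 falls from 7493 and 5495 in wild type to 1509.6 and 911 in GR-REV, CHI differs little, and AT2G43620 is between 4831 and 11285.

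The signalling branches that govern these genes could be examined only in small part. Of 30 jasmonate and ethylene genes, 2 had a probe set listed in the annotation. EIN3, the ethylene-pathway transcription factor, had signals between 1843 and 2044. The thionin gene THI2.1, a jasmonate marker, was at the floor on all arrays. Of 16 salicylate genes only SAG101 had one listed, with signals between 269 and 339.6. Of 20 osmotic stress genes 4 had one listed. COR47, a dehydrin gene, had signals of 3923 and 4368 in wild type mock and dexamethasone and 4886 and 5901 in GR-REV, while COR15A and LEA4-5 were at the floor throughout and COR15B reached at most 114. None of these genes was past 2-fold in any comparison. PR1, BGL2, PR5, ERF1B, ORA59 and VSP2 were not analysed here.

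Of the 77 relatives and signalling genes, 40 were tested with limma. For genotype none was called at an adjusted p under 0.05, while 2 had an unadjusted p under 0.05. Of the 14034 probe sets tested, 16.4% had such an unadjusted p, and the adjusted test called 1.28% higher and 0.492% lower in GR-REV. For dexamethasone over both genotypes none of the 40 was called and 7 had an unadjusted p under 0.05, against 11.5% of the 14034 tested; the adjusted test called 0.0285% of them higher and 0.0143% lower. The labels name 1 flask per group, so these p-values measure no spread between flasks of the same group. For genotype the spread is that between the mock and the dexamethasone flask of each genotype. For dexamethasone it is how far the wild type and the GR-REV difference lie apart.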

How the data were processed

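RNA from 4 flasks was hybridized to 4 Affymetrix ATH1 arrays, and per the submitters' processing notes the authors computed signals with MAS5, of a version not given in the sources used here. Deposited values are intensities, 1 signal per probe set, and their 2% trimmed mean was 500.05 to 500.06 on each array, so they had been scaled before deposit. The settings files gave fluidics module and scan order, per the file headers. Of 22810 probe sets, 64 controls were left out. Names came from the platform annotation through the RefSeq table of TAIR10.1: of 22746 probe sets, 13513 had 1 gene, of which 13436 matched, 503 had several and 8730 had none listed. No 2 arrays shared more than 1 identical value.

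Signals were floored at the 40th percentile before log2. Single arrays were compared by difference with a fixed 2-fold rule. The 14034 probe sets that exceeded the floor on 2 arrays or more entered limma (version 3.58.1, under R 4.3.3; lmFit and trended eBayes, Benjamini-Hochberg adjustment): genotype with 2 residual degrees of freedom, treatment, with genotype as a term, with 1. The tests were checked on simulated data. The 6 genes and the lists were chosen with earlier results of these data known. Of list genes that are none of the 6, those past 2-fold in at least 2 comparisons or called by limma were to be named. LCR67, LCR68, LCR69, CHI, AT2G43580, AT2G43600, AT2G43610, AT2G43620, AT4G38660, AT5G24620 and the signalling genes were added after their values were seen. No sequences were printed, as none were used here.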

Additional observations from a re-analysis of the deposited data

Results flagged for a closer look

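OSM34 and PDF1.2 were lower with dexamethasone in GR-REV and higher with it in wild type, by at least 2-fold each way. The GR-REV difference minus the wild type difference was -4.34 for OSM34 and -2.97 for PDF1.2 on the log2 scale. The OSM34 value rests in part on its wild type mock signal, 1.97-fold above the floor. The difference was not tested, since each group is 1 array. Of 22746 probe sets, 9 (0.0396%) had opposite signs at this size, and none of the 77 relatives and signalling genes was among them. Under the source names both genes were higher with dexamethasone in both genotypes.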

How the results depend on the processing

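Under the source names' treatments, 5 of the 6 genes passed 2-fold upwards and 0 downwards with dexamethasone in GR-REV; the values became 2.33 for OSM34, 1.94 for AT4G16260, 1.92 for AT4G22212, 1.89 for PDF1.2, 1.80 for PDF1.2b, 1.42 for PDF1.4, -1.20 for AT2G28790 and -1.63 for AT5G55180, by construction. With a floor at the 60th percentile AT4G22212 differed by -0.67 in the GR-REV pair, so that 4 of the 6 were 2-fold lower and only 1, PDF1.2b, was 2-fold below each other array in GR-REV dexamethasone. With the floor value added, 1 gene was 2-fold above each other array in GR-REV mock, and 2 with division by the median; the cause was not tested. All 6 genes exceeded the floor on every array at the 25th percentile and 4 at the 60th. No other count of how many of the 6 genes passed 2-fold changed with the floors at the 25th and 60th percentile, the floor value added, quantile normalization or division by the median. Among probe sets above the floor on every array, division by the median moved the median wild type dexamethasone difference from -0.06 to 0.16.

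For genotype, limma called 180 higher and 69 lower. These became 282 and 136 with the floor value added, 302 and 125 with division by the median, 568 and 429 with treatment as a term, and 15 and 15 when all probe sets were tested. Without 1 array the calls ranged from 61 to 198 higher and from 17 to 170 lower: 97 and 17 when the wild type mock array was dropped, 61 and 20 when the wild type dexamethasone array was, 198 and 170 when GR-REV mock was, 178 and 125 when GR-REV dexamethasone was; the lone array of a genotype is assumed to vary like the other. Of the 77 relatives and signalling genes, 2 were called with treatment as a term (PDF1.4 and LCR68), and 0 to 1 without 1 array (AT3G47540 without wild type mock, AT5G55180 without GR-REV dexamethasone). The treatment test called 4 higher and 2 lower, against 26 and 58 after quantile normalization with 1 of the 77, 222 and 196 with division by the median with 3 of the 77 (PDF1.4, AT3G47540 and AT4G38660), and 0 and 0 with the source names (256 at an unadjusted p under 0.05). The cause was not tested. The labels give no replicate numbers, so arrays could not be paired by replicate; treatment as a term sets the genotypes against each other within each treatment.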

Other observations

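Genes next to the 6 on their chromosomes were read after the values above were known, taking the 3 nearest genes on each side with a probe set above the floor. Beside AT4G22212, which was lower in GR-REV at both treatments, AT4G22190 had signals of 1245 and 1039.6 in wild type mock and dexamethasone and 737 and 490.2 in GR-REV. AT4G22280, farther along the chromosome, had 342 and 326 in wild type and was at the floor on both GR-REV arrays. ISU1, an iron-sulphur cluster scaffold gene between them, had signals between 2335 and 2994. Of the other neighbours of AT4G22212, AT4G22000 was higher in GR-REV by 0.38 in mock and 0.39 in dexamethasone on the log2 scale. AT4G22120 was higher by 0.28 and 0.01. AT4G22250 exceeded the floor only in wild type mock, with signals of 109.8 and 63.7 in wild type mock and dexamethasone and 63.5 and 12.8 in GR-REV. After flooring it differed by -0.27 in mock and 0.00 in dexamethasone, so no direction can be read for it in dexamethasone. Near PDF1.2, AT5G44380 had a signal of 684 in GR-REV mock and 236 in GR-REV dexamethasone, a difference of -1.54 on the log2 scale, against -0.14 in wild type. The other genes read beside PDF1.2 differed by -0.68 to 0.91 in the GR-REV pair. In that pair, genes beside PDF1.2b differed by -0.63 to 0.36, beside OSM34 by -0.90 to 0.39 and beside AT4G16260 by -0.49 to 0.54. Between the mock arrays AT4G16240, beside AT4G16260, differed by -1.21, the opposite direction to AT4G16260. Genes beside AT2G43590 differed by -0.67 to 0.59 between the mock arrays and by -0.59 to 0.24 between the dexamethasone arrays.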
